A study of Mus musculus with 12 samples.

Results

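The livers of wild type female and wild type male mice were compared at ZT10, 10 hours after lights on, across all genes with enough reads and across programs of drug metabolism, steroid and bile acid metabolism, transport, lipid metabolism and secreted proteins. Of the 12 mice sequenced, 6 entered this comparison, 3 wild type females (mice 1089, 1090 and 1091) and 3 wild type males (mice 1055, 1086 and 1087). All were on a C57BL/6 background, about 20 weeks old, and carried no engineered allele. The other 6 mice lacked Siah2, which encodes a ubiquitin ligase, with 3 of each sex at the same age and hour (Siah2 KO females 1070, 1104 and 1105 and males 1075, 1076 and 1081). They served to look at the same sex difference in mice that the wild type comparison did not use.

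The liver of the mouse is among the most sex-dependent organs. Pituitary growth hormone reaches it in separated pulses in males and almost continuously in females, and the pattern is read by the growth hormone receptor, the kinase JAK2 and the transcription factor STAT5B. Classic outputs in males are the major urinary proteins, which carry pheromones, and in females a set of cytochrome P450 enzymes and sulfotransferases. Cytochromes P450 oxidise steroids, fatty acids and foreign compounds (phase I), transferases then attach sulfate, glucuronic acid, glutathione or acetyl groups (phase II), and membrane transporters move the products.

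RNA was profiled with Lexogen QuantSeq, which reads the 3′ end of each transcript, so read number does not grow with transcript length. Between 1293688 and 3498155 reads per wild type mouse were counted on genes. Levels are given in CPM, edgeR's counts per library of standard size after TMM scaling, and fold changes as log2 of female relative to male, with the standard error after the ± sign. The sex labels held in all 6 mice. Xist, the noncoding RNA of the inactive X chromosome, was at 111, 112 and 69.6 CPM in females 1089, 1090 and 1091 and had 0 counts in each male, at least 215-fold higher in females with a floor of 3 counts over the 3 males. The Y-linked genes Ddx3y, Eif2s3y, Kdm5d and Uty had at most 2 counts over the 3 females and between 41 and 437 counts over the 3 males. Female 1091 stood apart from the other females. Its log CPM correlated with theirs at r = 0.914 and 0.912 across genes, against 0.969 between 1089 and 1090, and male pairs lay between 0.95 and 0.961. The total, the count of each gene list and the counts taken to the Siah2 KO mice are therefore also given without this female.

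Markers of hepatocytes summed to 35428 to 39272 CPM in females and 25353 to 34508 CPM in males, mostly through Alb, and 0 of 7 markers tested were called. The eighth, Ass1, was at 0 to 2.27 CPM in every mouse. The markers of female 1091 went both ways. It had less Tat (39.8 CPM, against 218 and 308 in the other females) and less Cps1 (78.0 CPM, against 199 and 232). Alb and Apoa1 were also lowest in it among females. It had more Serpina1a (9950 CPM, against 2440 and 2239) and more Ttr (7077 CPM, against 4756 and 5229). Its hepatocyte sum, 36055 CPM, lay between those of the other females. Markers of fat and pancreatic acinar cells were near 0 in every mouse, at most 2.44 and 1.44 CPM when summed. Markers of bile duct cells (10.4 to 45.4 CPM in females, 46.9 to 56.0 in males), endothelial cells (263 to 346 and 197 to 253) and stellate cells (188 to 362 and 135 to 230.1) had 0 called members. Of 14 markers of Kupffer and other immune cells, 8 were tested and 2 were called, Clec4f and Vsig4, both higher in females. Their summed level was 599.8, 424 and 574 CPM in females 1089, 1090 and 1091 and 134, 594 and 78.8 CPM in males 1055, 1086 and 1087. Male 1086 thus lay within the female range, mostly through Marco and Cd5l, at 242 and 245 CPM. In whole liver, fewer cells of a type and less RNA per cell cannot be told apart.

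Of 9335 genes tested, 130 had an adjusted p under 0.05 in the quasi-likelihood test of edgeR (1.39% of genes tested). They split into 64 higher in females (0.686%) and 66 higher in males (0.707%), and such genes are called here. The autosomes held 118 of them, 60 higher in females and 58 higher in males. None of the 130 overlapped between the sexes, so that every female was above every male or below every male. The share of all genes tested that had no such overlap was not counted. With so few mice of each sex, this separation is therefore not taken as evidence beyond the call itself. Nor is it taken as evidence for uncalled genes or family sums that do not overlap. The differences were large, over 4-fold for 80 genes and over 16-fold for 38, of which 17 were higher in females and 21 in males. By contrast the median log2 fold change of all genes tested was 0.05. Without female 1091 the count rose to 740, 311 higher in females and 429 in males, and without male 1087 it was 43. DESeq2 called 338 genes, 143 higher in females and 195 in males, and 128 of the 130 were among them. All 130 kept their direction under each of the 13 alternative settings that tested them.

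**Figure D1:**
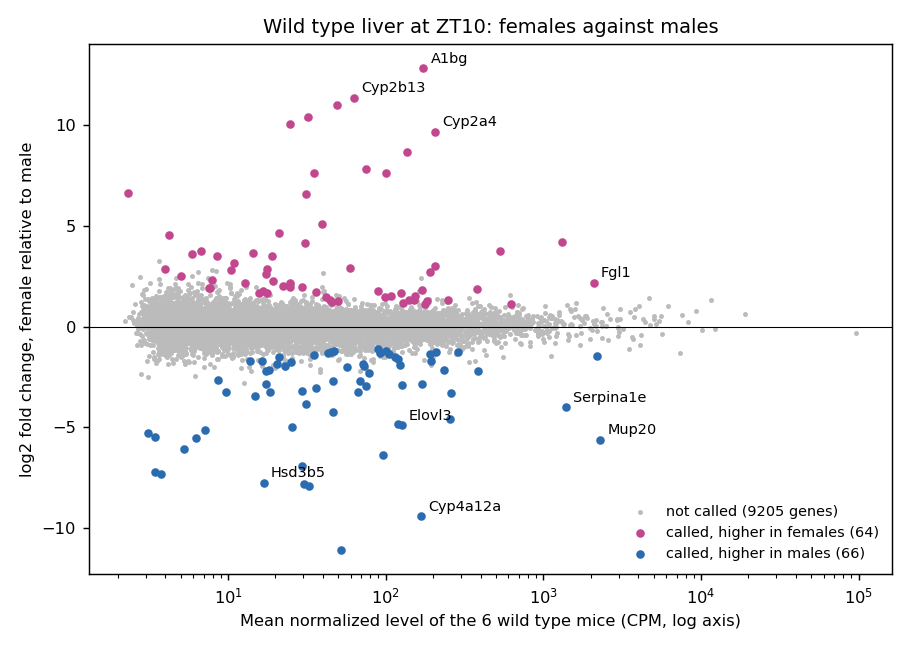
Log2 fold change of each of the 9335 genes tested (y axis, female relative to male) against its mean level over the 6 wild type mice (x axis, CPM on a log axis). The 64 genes called higher in females lie above 0 and the 66 called higher in males below it, and called genes occur at low levels as well as among abundant transcripts such as Mup20, Fgl1 and Serpina1e.

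The largest autosomal difference was that of A1bg, which encodes a plasma glycoprotein of the immunoglobulin superfamily. The gene lies on chromosome 15 (chr15:60917589-60921270, mm10). It was at 639.8, 80.3 and 322 CPM in females 1089, 1090 and 1091 and had 0 counts in each male. The females thus differed among themselves, yet A1bg was at least 724-fold higher in females than the floor of 3 counts allows in males (adjusted p = 0.00322 by edgeR). The plot of levels by mouse takes called autosomal genes that averaged 10 CPM or more and shows the 8 with the largest log2 fold changes in each direction. Of these 16, 4 were listed at 0 counts in all males (A1bg, Cyp2b13, Sult3a1 and Sult2a2) and 1 at 0 counts in all females (Cyp4a12b). Absence of overlap between the sexes was a condition of this choice, which every called gene met.

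**Figure D2:**
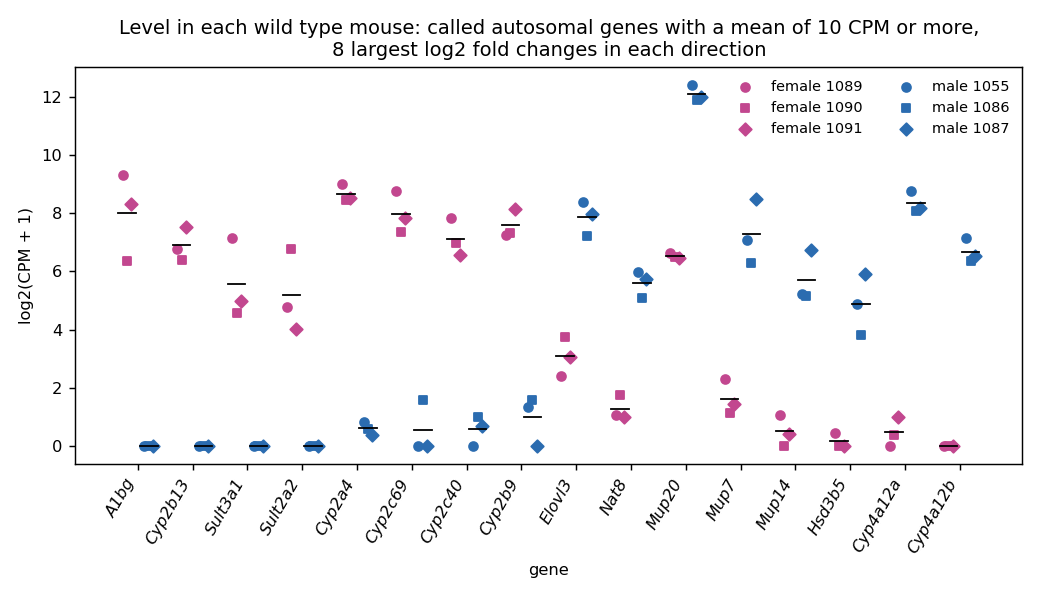
Level in each wild type mouse of the 8 genes most above 0 and the 8 most below 0 in log2 fold change among called autosomal genes that averaged 10 CPM or more (log2 of CPM + 1, 1 point per mouse, with marker shape for the mouse, and a black bar at the mean of 3). By the choice of genes, females are above males for the 8 on the left and below them for the 8 on the right. Mup20 in males reaches 5528 CPM.

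The cytochrome P450 and other phase I enzymes had 63 tested members, of which 10 were higher in females and 1 in males (17.5% called, against 1.39% of all genes). Their median log2 fold change was 0.02, and 33 of the 63 values were positive. An unadjusted p under 0.05 was found for 27 members, against 1423 of all 9335 genes tested. Without female 1091, 19 members were called, 15 higher in females and 4 in males. Within the list as reported, 9 of 37 members of P450 families 1 to 3 were called, 8 of them higher in females. Cyp2b13 was at 108, 83.6 and 183 CPM in the 3 females with 0 counts in males, at least 272-fold higher (adjusted p = 0.000272 by edgeR). Its neighbour Cyp2b9 was at 153, 158 and 286 CPM in females and at 1.51, 2.00 and 0 CPM in males (log2 fold change 7.64 ± 0.64, adjusted p = 0.000197). Members of the CYP2B family oxidise drugs and steroids, and both genes were close to absent in males.

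Cyp2a4, a testosterone 15α-hydroxylase, was at 515, 350.2 and 369 CPM in females and at 0.757, 0.500 and 0.306 CPM in males. Over the 3 males it had 3 counts, and the ratio of the pooled levels was 893 (95% counting interval 305 to 4334, adjusted p = 5.13e-06 by edgeR). Its close relative Cyp2a5, which hydroxylates coumarin, was at 545 to 913 CPM in females and 543 to 837 CPM in males and was not called (adjusted p = 0.837). The genes are near-identical copies, so that reads could be assigned to the wrong one. Summed over both, the level was 914 to 1263 CPM in females and 543 to 838 CPM in males, without overlap. Cyp2a22 followed Cyp2a4, with 58.4 to 95.1 CPM in females and 0.611 to 5.50 CPM in males (log2 fold change 5.08, adjusted p = 0.00188).

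In the Cyp2c cluster of chromosome 19, Cyp2c69 was at 431, 161 and 228 CPM in females, and 1 male (1086) had any count, at 2.00 CPM (log2 fold change 8.68 ± 0.77, adjusted p = 0.000284 by edgeR). Cyp2c40 was at 226, 125 and 94.7 CPM in females and at 0, 1.0 and 0.611 CPM in males (log2 fold change 7.83, adjusted p = 9.44e-05). Cyp2c68 differed less, with 107 to 174 CPM in females and 34.5 to 46.9 CPM in males (log2 fold change 1.76, adjusted p = 0.0106). Members of this cluster resemble each other closely. Summed from Cyp2c37 to Cyp2c70 (15 genes), the level was 2990 to 3414 CPM in females and 2458 to 2618 CPM in males, a ratio of means of 1.27 without overlap, so the sex difference of the family total was far smaller than that of its most dimorphic members. Cyp3a44 had 3.27 to 6.03 CPM in females and 0 counts in males, at least 10.1-fold higher (adjusted p = 0.0323), but it was called in 0 of the fits with 1 mouse left out and in 3 of the 8 alternatives that tested it. The abundant Cyp3a11, the main drug-oxidising P450 of mouse liver, was at 1133 to 3384 CPM in females and 4294 to 5259 CPM in males and was not called (adjusted p = 0.200). Summed over 9 Cyp3a genes, the level was 1744 to 4556 CPM in females and 5340.2 to 6265 CPM in males, without overlap. The sum held almost nothing of Cyp3a41a, a textbook sex-biased gene, which had 1 count in female 1089 and 0 in each other mouse. Whether reads shared between copies were lost in counting was not tested, so the sum may not give the family total.

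The P450 that was called higher in males was Cyp2d9, a testosterone 16α-hydroxylase on chromosome 15 (chr15:82452377-82456827). It was at 558, 371 and 546 CPM in males 1055, 1086 and 1087 and at 15.5, 22.6 and 22.1 CPM in females. The log2 fold change was -4.61 ± 0.31 (adjusted p = 6.71e-05 by edgeR), and it passed in all 13 alternatives. Outside the P450 enzymes, Aldh1b1, a mitochondrial aldehyde dehydrogenase, was at 108 to 189 CPM in females and 41.0 to 66.3 CPM in males, a difference close to the threshold (adjusted p = 0.0394). Carboxylesterases and epoxide hydrolases had 0 of 12 members called, against 1.39% of all genes. An unadjusted p under 0.05 was found for 3 of them, against 1423 of all 9335 genes.

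Promoters of called genes were searched for the STAT5 core motif TTCNNNGAA, which reads the same on both strands, and for ATTGAT, a core of the HNF6 (Onecut1) motif, on either strand. Neither motif contains the other. The windows searched were the 250 bases before each RefSeq start on GRCm38.p6. At least 1 window was found for 46 of 60 autosomal genes called higher in females and 41 of 58 called higher in males. TTCNNNGAA was present in 8.47% of 59 windows of genes higher in females, 4.44% of 45 windows of genes higher in males and 5.92% of 9298 windows of all autosomal genes tested. ATTGAT was present in 10.2%, 13.3% and 3.80%, and in all 32851 windows of the table the shares were 7.02% and 6.72%. The shares of called genes rest on few windows. For genes higher in females and in males they were 5 and 2 windows with TTCNNNGAA, and 6 and 6 with ATTGAT. A gene could have more than 1 window. A match describes letters and is no evidence of binding. The 250 bases before the start are printed for 4 called genes with TTCNNNGAA, 3 of them higher in females (A1bg, Hamp2 and the transporter Slc22a26) and 1 higher in males (Arsa, a lysosomal sulfatase chosen after its values were seen), with the match in capitals. Each is written 5′ to 3′ on the gene's strand, which is minus for all 4, and covers chr15:60921271-60921520, chr7:30924182-30924431, chr19:7802668-7802917 and chr15:89477425-89477674 in that order.
A1bg: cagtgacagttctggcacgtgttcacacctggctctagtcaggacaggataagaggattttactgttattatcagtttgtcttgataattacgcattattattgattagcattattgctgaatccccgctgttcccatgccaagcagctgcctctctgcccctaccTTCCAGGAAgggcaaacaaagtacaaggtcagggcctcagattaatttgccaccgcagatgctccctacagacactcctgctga
Hamp2: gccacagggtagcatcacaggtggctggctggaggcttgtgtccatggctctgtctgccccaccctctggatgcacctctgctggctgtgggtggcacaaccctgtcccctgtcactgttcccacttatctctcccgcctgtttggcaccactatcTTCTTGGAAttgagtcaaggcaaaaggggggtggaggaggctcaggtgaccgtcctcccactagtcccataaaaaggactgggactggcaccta
Slc22a26: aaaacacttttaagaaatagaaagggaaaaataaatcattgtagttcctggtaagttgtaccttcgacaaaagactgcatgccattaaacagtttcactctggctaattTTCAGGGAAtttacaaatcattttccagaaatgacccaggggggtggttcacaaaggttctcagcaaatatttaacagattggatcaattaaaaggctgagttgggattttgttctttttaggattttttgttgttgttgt
Arsa: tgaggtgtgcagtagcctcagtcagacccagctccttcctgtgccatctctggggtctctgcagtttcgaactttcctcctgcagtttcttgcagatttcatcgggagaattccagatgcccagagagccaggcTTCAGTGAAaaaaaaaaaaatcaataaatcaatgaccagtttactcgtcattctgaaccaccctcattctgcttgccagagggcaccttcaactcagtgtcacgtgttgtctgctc
The matches begin 84, 94, 141 and 116 bases before the start.

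The phase II enzymes had 45 tested members, of which 3 were higher in females and 3 in males (13.3% called, median log2 fold change -0.01). Without female 1091 the count was 13, 5 higher in females and 8 in males, and without male 1055 or male 1087 it was 2, both higher in males. All 3 called sulfotransferases of 10 tested were higher in females. Sult3a1, which transfers sulfate to amines, was at 139.8, 22.9 and 30.8 CPM in females with 0 counts in males, at least 134-fold higher (adjusted p = 0.0164 by edgeR). Sult2a2, a hydroxysteroid sulfotransferase, was at 26.7, 107 and 15.4 CPM in females, again with 0 counts in males, at least 116-fold higher (adjusted p = 0.0200). Sult2a7 was at 10.7 to 44.0 CPM in females and 0.757 to 3.50 CPM in males (adjusted p = 0.0195). Sult2a1 had 20.2, 156 and 10.0 CPM in females and 0 counts in males, and its spread among females left it outside the threshold (adjusted p = 0.0566). Reads of these copies cannot be fully separated, but Sult2a1 to Sult2a7 summed to 90.8, 291 and 36.5 CPM in females against 0.757, 3.50 and 1.83 CPM in males.

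The 3 phase II enzymes called higher in males belonged to other families. Gstp1, a glutathione S-transferase, was at 493, 309 and 615 CPM in males and at 32.1, 45.8 and 66.6 CPM in females (log2 fold change -3.29 ± 0.37, adjusted p = 0.00148 by edgeR). It was the 1 called member of 19 glutathione S-transferases tested. Nat8, an N-acetyltransferase of cysteine conjugates, was at 62.1, 33.0 and 52.6 CPM in males and at 1.08, 2.38 and 1.0 CPM in females (log2 fold change -4.97 ± 0.43, adjusted p = 0.000266). The glucuronosyltransferase Ugt2b38 was at 5.0 to 8.86 CPM in males with 0 counts in females, at least 22.1-fold higher in males (adjusted p = 0.0106). Sult1a1, the abundant phenol sulfotransferase, was at 441 to 621 CPM in females and 232 to 286 CPM in males and was not called (adjusted p = 0.0783).

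Steroid and bile acid metabolism had 32 tested members, of which 1 was higher in females and 2 in males (9.38% called, median log2 fold change -0.03). Leaving out female 1091 gave 8, 3 higher in females and 5 in males. Cyp17a1, the 17α-hydroxylase and lyase of steroid synthesis, was at 48.3, 36.3 and 36.2 CPM in females and at 1.51, 3.50 and 0.306 CPM in males (log2 fold change 4.62 ± 0.54, adjusted p = 0.00193 by edgeR). Cyp7b1, the oxysterol 7α-hydroxylase of the acidic bile acid pathway, went the other way, with 300.5, 123 and 247 CPM in males and 31.0, 23.5 and 36.5 CPM in females (log2 fold change -2.88 ± 0.36, adjusted p = 0.00283). Hsd3b5, a ketosteroid reductase of the 3β-hydroxysteroid dehydrogenase family on chromosome 3, was at 28.8, 13.01 and 58.7 CPM in males and had 1 count over the 3 females (pooled ratio 354, 95% counting interval 63.0 to 14047, adjusted p = 0.00191). The other 20 of 21 hydroxysteroid dehydrogenases and reductases tested were not called.

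Transporters had 37 tested members, with 3 called higher in females and 2 in males (13.5% called, median log2 fold change 0.30). Leaving out female 1091 gave 12, 8 higher in females and 4 in males, and without male 1055, male 1087 or female 1090 it was 3. Slc22a26 and Slc22a27, organic anion transporters, were higher in females. Slc22a26 was at 75.0, 48.8 and 61.3 CPM in females and at 0, 1.0 and 0.611 CPM in males (log2 fold change 6.57 ± 0.48, adjusted p = 9.44e-05 by edgeR), and Slc22a27 was at 7.03 to 19.9 CPM in females and 0 to 1.5 CPM in males (adjusted p = 0.0240). Slc22a28, the next called gene on the same stretch of chromosome 19, was higher in males, with 25.0, 6.50 and 10.1 CPM against 3 counts over the 3 females (pooled ratio 36.4, 95% counting interval 12.02 to 180.5, adjusted p = 0.0237). Slco1a1, an uptake carrier for bile acids and steroid conjugates, was at 347, 212 and 338 CPM in males and at 63.4, 28.3 and 30.8 CPM in females (log2 fold change -2.87 ± 0.37, adjusted p = 0.00322). Abcd2, a peroxisomal importer of very long chain fatty acids, was at 119.7, 67.2 and 128 CPM in females and at 15.1, 13.5 and 13.8 CPM in males (log2 fold change 2.90 ± 0.31, adjusted p = 0.00126).

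Lipid metabolism had 140 tested members, of which 3 were higher in females and 4 in males (5% called, median log2 fold change 0.18). Without female 1091 the count was 22 and the majority turned, with 12 higher in females and 10 in males, as with library quality weights. Without male 1055 or male 1087 it was 3 or 4, and 3 of these were higher in males in either fit. Its 2 largest differences were in fatty acid omega hydroxylation. Cyp4a12a, which hydroxylates arachidonic acid, was at 439.7, 271 and 291 CPM in males 1055, 1086 and 1087 and at 0, 0.298 and 1.0 CPM in females (log2 fold change -9.42 ± 0.55, adjusted p = 2.32e-05 by edgeR). Its near-identical copy Cyp4a12b was at 140.0, 82.0 and 92.0 CPM in males with 0 counts in females, at least 299.8-fold higher in males (adjusted p = 9.44e-05). Summed over both copies, the level was 353 to 579.7 CPM in males and 0 to 1.0 CPM in females. Elovl3, which elongates saturated fatty acids, was at 338, 147 and 249.98 CPM in males and at 4.33, 12.5 and 7.36 CPM in females (log2 fold change -4.90 ± 0.45, adjusted p = 0.000392), and it was the 1 called member of 19 in fatty acid synthesis, elongation and desaturation.

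The other called lipid genes were of smaller size or lower level. Apom, the apolipoprotein that carries sphingosine 1-phosphate, was at 255, 242 and 299 CPM in females and at 66.6, 81.0 and 78.2 CPM in males (log2 fold change 1.81 ± 0.23, adjusted p = 0.00320 by edgeR). Tm6sf2, which takes part in loading lipid into very low density lipoprotein, was at 22.8 to 29.2 CPM in females and 8.0 to 9.08 CPM in males (adjusted p = 0.0191). Hao2, a peroxisomal hydroxyacid oxidase, was at 6.13 to 10.7 CPM in females and had 2 counts over the 3 males (pooled ratio 27.1, 95% counting interval 7.24 to 228, adjusted p = 0.00933). Lpl, lipoprotein lipase, was higher in males, at 59.5 to 70.4 CPM against 22.3 to 34.5 CPM (adjusted p = 0.0465). Cholesterol synthesis and uptake had 0 of 22 members called, against 1.39% of all genes. An unadjusted p under 0.05 was found for 3 of them, against 1423 of all 9335 genes. Cd36, a fatty acid receptor often higher in female liver, was at 12.1 to 43.3 CPM in females and 20.5 to 45.5 CPM in males and was not called (adjusted p = 0.758).

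Secreted proteins gave the most calls, 18 of 115 tested, with 5 higher in females and 13 in males (15.7% called, median log2 fold change 0.30). The excess in males depended on the mice in the fit, since without female 1091 there were 37 calls, 18 higher in females and 19 in males, and library quality weights gave 21 and 17. Without male 1055 or male 1087 there were 10, of which 9 were higher in males. The major urinary proteins accounted for 6 of the 13, out of 8 members tested. Mup20, the pheromone darcin, was at 5528, 3836 and 4105 CPM in males and at 97.3, 89.0 and 88.0 CPM in females (log2 fold change -5.62 ± 0.31, adjusted p = 2.31e-05 by edgeR). Mup7 was at 135, 76.5 and 358 CPM in males and at 3.96, 1.19 and 1.67 CPM in females (log2 fold change -6.40, adjusted p = 0.00126). Mup21 (log2 fold change -4.82), Mup14 (-6.93), Mup12 (-3.87) and Mup3 (-1.45) were also called. Mup3 was the one still abundant in females, at 971 to 1418 CPM. Mup1 and Mup10 were not called. Mup1 was at 37.8, 35.4 and 2.34 CPM in females and 27.0 to 51.5 CPM in males. Mup10 was at 11.9, 11.6 and 0.670 CPM in females and 3.00 to 4.58 CPM in males, and without female 1091, the lowest for both, it was called higher in females (log2 fold change 1.52, adjusted p = 0.0359 by edgeR). The genes are nearly identical and reads may be split between them, so the 20 members in the table were also summed. The sum was 9495, 6542 and 8791 CPM in males and 1290.1, 1568 and 1073 CPM in females, 6.32-fold higher in males. A sum cannot restore reads that were counted on no copy, and whether such reads were dropped was not tested. This limit holds for every family sum given here.

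Among serpins, the family of protease inhibitors, 6 of 20 tested were called, 1 higher in females and 5 in males. Serpina1e, a copy of α1-antitrypsin, was at 2941, 1126 and 3773 CPM in males and at 254, 97.9 and 138 CPM in females (log2 fold change -4.002 ± 0.52, adjusted p = 0.00348 by edgeR). The sum over the 5 near-identical copies Serpina1a to Serpina1e overlapped between the sexes, at 10334 to 20968 CPM in females and 15716 to 21711 CPM in males. Serpine2, an inhibitor of thrombin, was at 145, 116 and 128 CPM in males and 19.1, 26.5 and 33.5 CPM in females (log2 fold change -2.29, adjusted p = 0.00195), and Serpina12 (vaspin) was at 41.6 to 102 CPM in males and 2.68 to 11.2 CPM in females (adjusted p = 0.0178). The pseudogene Serpina4-ps1 moved the same way (log2 fold change -3.47, adjusted p = 0.00149), and so did Serpina7, thyroxine-binding globulin on the X chromosome, which was not among the genes chosen for full values. Serpina3m was the serpin higher in females, at 235 to 279.7 CPM against 85.5 to 118 CPM (adjusted p = 0.0282).

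Complement had 3 of 25 tested members called and coagulation 0 of 21, against 1.39% of all genes. Of the coagulation genes, 4 had an unadjusted p under 0.05, against 1423 of all 9335 genes tested. C6, a subunit of the membrane attack complex, was at 98.4, 119.6 and 143 CPM in males and at 20.9, 9.52 and 7.70 CPM in females (log2 fold change -3.25 ± 0.38, adjusted p = 0.00193 by edgeR). C4a, the sex-limited protein, was at 14.5 to 44.6 CPM in males and 5.41 to 6.70 CPM in females (adjusted p = 0.0313), while the sum with its abundant copy C4b overlapped, at 1015 to 1838 CPM in females and 1249 to 1403 CPM in males. Fcna, a lectin of the complement system made by macrophages, was at 48.2 to 64.2 CPM in females and 14.4 to 20.5 CPM in males (log2 fold change 1.73, adjusted p = 0.0124). It moved with the 2 called Kupffer markers of 8 tested, Clec4f (26.5 to 58.6 against 4.54 to 14.5 CPM) and Vsig4 (18.1 to 42.5 against 1.51 to 8.51 CPM). The median log2 fold change of the 8 was 1.36, against 0.05 for all genes tested. Marco and Cd5l did not separate the sexes, at 242 and 245 CPM in male 1086 against 38.5 to 55.5 and 230 to 350 CPM in females. Lyz2, Emr1 and Cd68 also overlapped. Csf1r (23.2 to 40.5 CPM in females, at most 17.5 CPM in males), Ptprc, Cd74 and S100a8 did not overlap but were not called. C1qb and Ccl6, outside the markers and picked after their values were seen, were called higher in females. Their log2 fold changes were 2.14 and 2.80 (adjusted p = 0.0114 and 0.0108 by edgeR). The part of Kupffer and other immune cells in the difference of Fcna was not tested.

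The growth factor axis, carriers and acute phase proteins had 3 of 41 tested members called (7.32%, against 1.39% of all genes), all higher in females. A positive log2 fold change was found for 37 of the 41, with a median of 0.42, against 0.05 for all genes tested. The share of positive values among all genes was not counted. Besides A1bg the called members were Hamp2 and Fgl1. Hamp2, one of the paired genes for the iron hormone hepcidin, was at 254, 423 and 415 CPM in females and at 18.9, 88.1 and 30.3 CPM in males (log2 fold change 2.98 ± 0.51, adjusted p = 0.0191 by edgeR). Fgl1, a fibrinogen-like protein secreted by hepatocytes, was the most abundant of the genes called higher in females, at 3799, 2281 and 4181 CPM, with 619.8, 886 and 769 CPM in males (log2 fold change 2.17 ± 0.31, adjusted p = 0.00773). Male 1086 had the highest level of both genes among males.

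**Figure D3:**
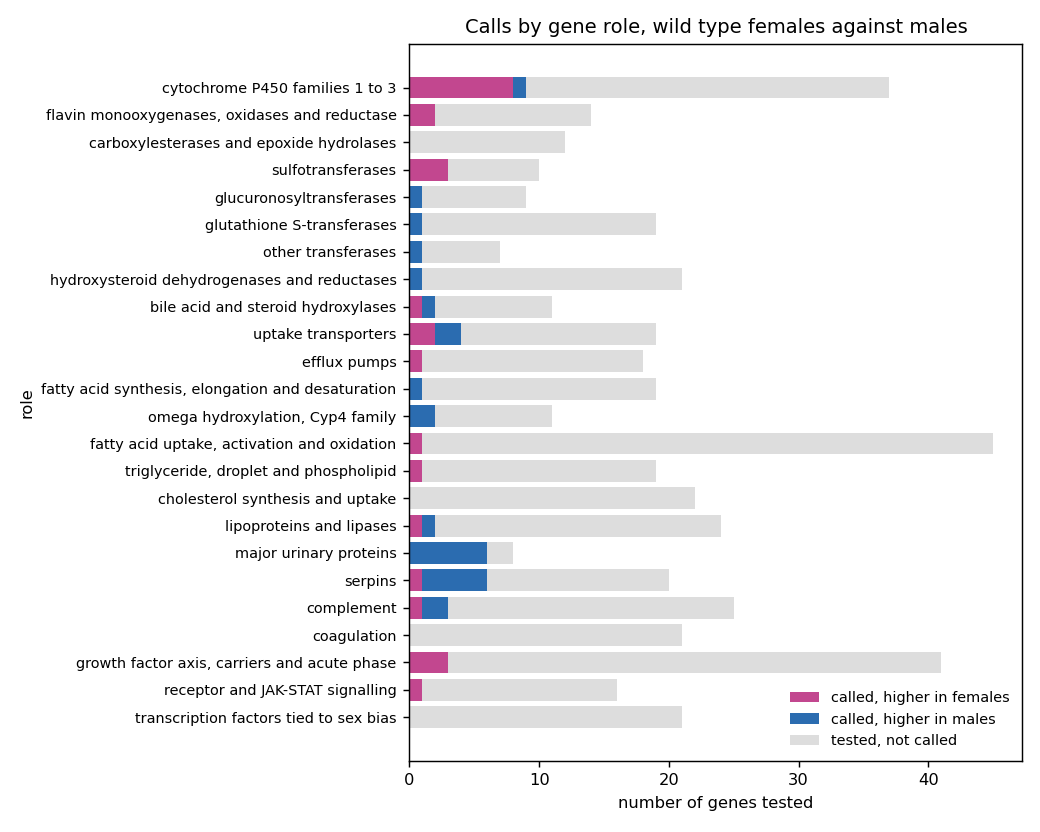
Number of genes tested in each role (x axis), split into those called higher in females, called higher in males and not called. The major urinary proteins have 6 of 8 members called, all higher in males, and P450 families 1 to 3 have 8 called higher in females and 1 in males. Carboxylesterases, cholesterol synthesis, coagulation and sex-bias transcription factors have 0. Of all genes tested, 1.39% were called. At that share a role with 12 to 22 members tested may well have no call, so 0 is not read as a result about these roles.

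Of 37 tested regulators of the growth hormone and sex hormone response, 1 was called (2.7%, against 1.39% of all genes), the prolactin receptor gene Prlr. An unadjusted p under 0.05 was found for 6 of them, against 1423 of all 9335 genes. Without female 1091 the number called was 2, both higher in females. Without male 1086 it was 2, and without male 1055, male 1087 or female 1089 it was 0. Prlr was at 244, 156 and 173 CPM in females and at 57.5, 76.5 and 44.3 CPM in males (log2 fold change 1.69 ± 0.29, adjusted p = 0.0195 by edgeR). The growth hormone receptor gene Ghr was at 91.1 to 210.1 CPM in females and 188 to 318 CPM in males (adjusted p = 0.403), and Stat5b was at 92.5 to 157 and 109 to 190.1 CPM (adjusted p = 0.546). Esr1, the oestrogen receptor α gene, was below 8 CPM in all mice (adjusted p = 0.294). The transcriptional repressors tied to sex bias by earlier work gave no call. Bcl6 was at 77.2 and 67.8 CPM in males 1055 and 1087 but at 5.0 CPM in male 1086, below the 13.4 to 22.1 CPM of females (adjusted p = 0.349). Trim24 was at 32.8 to 72.4 CPM in females and 17.0 to 18.9 CPM in males (adjusted p = 0.0633). Cux2 fell below the count filter and was not tested, with 13, 7 and 8 counts in females and 0, 1 and 0 in males. Nr1i2, which encodes the drug sensor PXR, was at 94.1 to 168 and 49.8 to 78.7 CPM (adjusted p = 0.147).

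A set of textbook sex-biased liver genes was looked at whether or not it passed. Susd4, Ihh and Cyp3a41a also fell below the count filter. Nudt7, a peroxisomal CoA diphosphatase, was at 514, 276 and 784 CPM in males and at 214, 117 and 135 CPM in females (log2 fold change -1.76, adjusted p = 0.0646 by edgeR). Acot3, a peroxisomal thioesterase, was at 47.6 to 101 CPM in females and 1.53 to 24.5 CPM in males (adjusted p = 0.105). Fmo2 was at 9.37 to 28.0 and 1.51 to 10.5 CPM, with overlap (adjusted p = 0.161), and Egfr was at 54.9 to 122 CPM in females and 83.0 to 192 CPM in males (adjusted p = 0.352).

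The same sex difference was then taken from the 6 Siah2 KO mice, which share no sample with the wild type comparison. In these mice 1044 of 9102 genes tested were called (11.5%), and the spread between mice was lower, with a biological coefficient of variation of 0.181 against 0.294 in wild type mice. Of the 130 genes called in wild type mice, 122 were tested in Siah2 KO mice. There 110 had the same direction, 83 were called in that direction and 0 were called in the opposite one. Among the 51 called genes on the lists above, 48 were tested, all 48 had the same direction and 45 were called. Among the 79 called genes on no list, 74 were tested, 62 had the same direction and 38 were called. The lists were drawn up with sex-biased genes in mind, so these shares describe a choice as well as the mice. These shares were lower for the longer set of genes called without female 1091. Of its 740 genes, 708 were tested in Siah2 KO mice, 466 had the same direction, 192 were called in it and 23 were called in the opposite one. On the lists, 94 of 109 then had the same direction, 74 were called in it and 4 in the opposite one.

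Values of called genes from each program are set side by side for both genotypes. Cyp2c40 had a log2 fold change of 7.83 in wild type and 7.49 in Siah2 KO mice (adjusted p = 6.93e-08 by edgeR in the latter), and Cyp2d9 of -4.61 and -5.10 (adjusted p = 1.5e-07). For Gstp1 they were -3.29 and -2.49 (adjusted p = 7.35e-07), for Cyp7b1 -2.88 and -3.40 (adjusted p = 6.77e-08) and for Elovl3 -4.90 and -6.10 (adjusted p = 1.65e-09). For Abcd2 the values were 2.90 and 3.06 (adjusted p = 4e-07) and for Serpina3m 1.29 and 1.25 (adjusted p = 0.000357). Other list genes lay further apart. Hamp2 had 2.98 in wild type and 5.94 in Siah2 KO mice, Serpina1e -4.002 and -6.67, and Mup12 -3.87 and -6.58, and the test of the difference between genotypes gave adjusted p = 0.0847, 0.109 and 0.0946. Cyp4a12a had -9.42 and -6.24, with adjusted p = 0.345 for the difference. The list members that were tested but not called in Siah2 KO mice were Aldh1b1 (0.92, adjusted p = 0.0519), Tm6sf2 (0.72, adjusted p = 0.285) and Fcna (0.47, adjusted p = 0.338), each with the same sign as in wild type. Genes that missed the threshold in wild type mice could pass there, as did Nudt7 (-2.10, adjusted p = 6.86e-06), Trim24 (1.90, adjusted p = 3.45e-05), Acot3 (4.36, adjusted p = 4e-07) and Egfr (-1.77, adjusted p = 7.8e-06). The difference between genotypes was tested as the sex difference in wild type minus that in Siah2 KO mice. It passed for 25 of 9806 genes (0.255%), 6 of them among the 130, and for none of the 51 genes on the lists. Without female 1091 it passed for 522 genes, and with any other single mouse left out for at most 9.

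**Figure D4:**
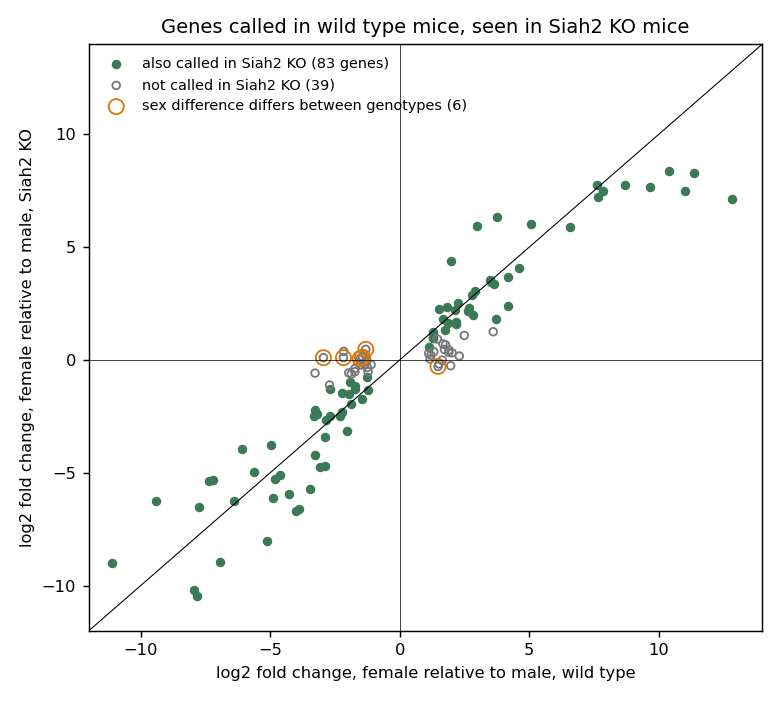
Log2 fold change of female relative to male in Siah2 KO mice (y axis) against that in wild type mice (x axis) for the 122 genes called in wild type and tested in both, with the line of equality. The 83 filled points are also called in Siah2 KO mice, all in the same direction, and the 6 ringed genes, whose sex difference differs between genotypes, lie near 0 on the y axis.

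Called genes that lay near each other were also listed. With neighbours defined as called autosomal genes at most 500 kb apart, 30 of them fell into 11 regions, 6 with 1 direction and 5 with both. The share of all tested genes with such neighbours was not counted, so it cannot be told whether called genes lie closer together than others. Each region ends at its outermost called genes, so uncalled genes just outside are left out by construction. Beside the Cyp2b and Cyp2c regions below, Cyp2b10 (chr7:25897658-25926624, adjusted p = 0.0647 by edgeR) and Cyp2c37 (chr19:39992424-40012243, adjusted p = 0.0804) were tested and not called. On chromosome 7 the 253.7 kb from chr7:26061388-26315088 held Cyp2b13, Cyp2b9 and Cyp2a4, and all 3 genes tested there were called higher in females. On chromosome 19, Cyp2c68, Cyp2c40 and Cyp2c69 (chr19:39688836-39886769) were likewise the 3 genes tested and all higher in females, whereas Slc22a26, Slc22a27 and Slc22a28 (chr19:7780094-8131982) were the 3 genes tested and split 2 to 1. Mup20, Mup3 and Mup21 (chr4:62011337-62150841) and the Cyp4a12 pair (chr4:115299046-115439034) were higher in males throughout. On chromosome 12, Serpina1e, Serpina12 and Serpina4-ps1 were higher in males and Serpina3m in females, within 447.3 kb that held 7 tested genes. Hsd3b5 and Hao2, 276.7 kb from end to end on chromosome 3, went opposite ways. Copies of 1 ancestral gene share sequence as well as position, so reads assigned to the wrong copy can make neighbours alike.

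Outside the lists, several called genes of known function were picked after their values were seen. The metallothioneins Mt1 and Mt2, which bind zinc and copper, were among the most abundant. Mt2 was at 2776, 2437 and 2212 CPM in females and at 37.1, 314 and 57.5 CPM in males (log2 fold change 4.18 ± 0.72, adjusted p = 0.0196 by edgeR), and Mt1 at 603 to 1218 and 32.5 to 155 CPM (log2 fold change 3.73, adjusted p = 0.0151). Male 1086 was again the highest male for both. Ccnd1, which encodes the cell cycle regulator cyclin D1, was at 330.2, 239 and 417 CPM in females and at 45.4, 52.0 and 55.3 CPM in males (log2 fold change 2.68 ± 0.28, adjusted p = 0.000984). Pon1, the paraoxonase of high density lipoprotein, was at 749 to 1002 and 386 to 393 CPM (adjusted p = 0.0493), and Fbp1, the fructose bisphosphatase of gluconeogenesis, at 306 to 395 and 127 to 171 CPM (adjusted p = 0.0285). Papss2, which makes the sulfate donor, was higher in females (165 to 223 against 65.5 to 100.2 CPM, adjusted p = 0.0368), and Ugdh, which makes UDP-glucuronic acid, was higher in males (167 to 233 against 31.8 to 73.8 CPM, adjusted p = 0.0183).

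Among genes higher in males outside the lists, Rassf3 was at 689, 533 and 681 CPM in males and at 141, 107 and 163 CPM in females (log2 fold change -2.21 ± 0.26, adjusted p = 0.00200 by edgeR). Arsa was at 71.9, 89.1 and 81.0 CPM in males and at 14.8, 9.82 and 12.7 CPM in females (log2 fold change -2.70 ± 0.27, adjusted p = 0.000651). Selenbp2, a selenium-binding protein, was at 114, 24.5 and 123 CPM in males and at 1.19 to 7.93 CPM in females (adjusted p = 0.0155). Alas2, the erythroid enzyme of haem synthesis on the X chromosome, was at 104, 83.5 and 85.9 CPM in males and 20.9, 25.0 and 21.1 CPM in females (log2 fold change -2.02 ± 0.24, adjusted p = 0.00195). It made up nearly the whole summed level of red blood cell markers (84.5 to 105 CPM in males, 21.8 to 26.8 in females), 4 of which had 0 counts in all 6 mice.

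How many genes were called depended on which mice were in the fit, and this shaped every count above. Of the 130 genes, 40 were called with any 1 mouse left out, 15 higher in females and 25 in males, and 16 were called under all 13 alternatives. Those called with any 1 mouse left out included A1bg, Cyp2b13, Cyp2a4, Cyp2c40, Cyp17a1, Slc22a26, Cyp4a12a, Hsd3b5, Elovl3, Mup20, Cyp2d9, Gstp1, Cyp7b1, Slco1a1, Serpina1e and C6. Others were not. Sult3a1 was called in 4 of the 6 leave-outs, Fgl1 and Hamp2 in 4, Prlr and Fcna in 3, Aldh1b1, Tm6sf2, Lpl, Serpina3m and Mup3 in 1, which was the fit without female 1091, and Cyp3a44 in 0.

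**Figure D5:**
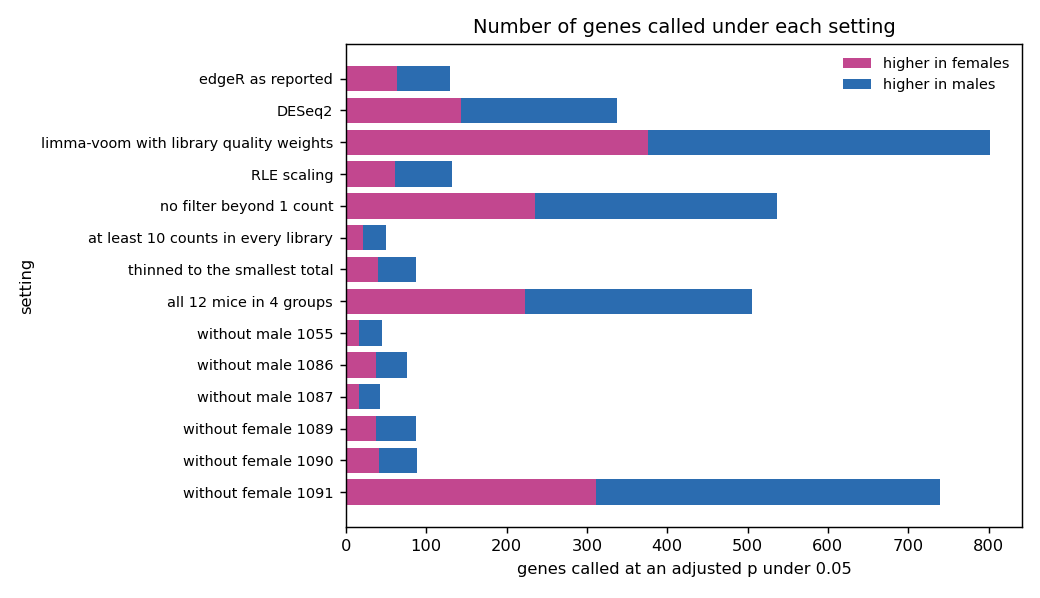
Number of genes called at an adjusted p under 0.05 (x axis) under the reported test and each of the 13 alternatives (y axis), split by direction. The count runs from 43 without male 1087 to 802 with library quality weights, and the settings that remove or down-weight female 1091 give 740 and 802.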

How the data were processed

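Livers of 12 mice were profiled. The authors deposited raw read counts per gene symbol in 1 table per sex, made on Illumina's BaseSpace. The submitters' processing notes name STAR, DESeq and mm10 with no versions. The paper describes individual livers, while the labels describe pooled RNA, and the paper's description was used, so p-values measure the spread between these samples. The tables were joined by row, and 23420 symbols were kept, 27 of them turned into dates by spreadsheet software and not named. Symbols were placed with RefSeq (GRCm38.p6, the mm10 assembly).

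The 3 wild type females and 3 males were compared with edgeR 4.0.16 in R 4.3.3 (filterByExpr, TMM, quasi-likelihood F test, two-sided, Benjamini-Hochberg over all genes tested, threshold 0.05). Standard errors follow from the test statistic. DESeq2 1.42.0, the paper's tool, and limma 3.58.1 (voom with library quality weights) were alternatives, and so were RLE scaling, a filter of 1 count in all, a filter of 10 counts in each library, thinning to the smallest total, all 12 mice in 4 groups, and each mouse left out. Taking the genes called with 1 wild type mouse left out to the Siah2 KO mice was chosen after seeing the data. Scripts were tested on simulated data. Python 3.11.15 with pandas 2.3.3 and matplotlib 3.10.9 was used for joins and figures. Reads carry no molecular identifiers, so counting intervals (exact binomial, 95%) and floors of 3 counts per group cover counting error only.

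The comparison, the gene lists and the genes named were chosen with earlier results of these data known. Named genes are the sex-linked checks, the 8 largest autosomal differences per direction among called genes that do not overlap and average 10 CPM or more, up to 4 called genes per role and direction, textbook sex-biased genes, and hormone regulators. Some genes these rules cover are not reported here individually. Genes named after their values were seen are said to be so here or in the text. They are Mup12, Mup3, Mup1, Mup10, Cyp2a22, Cyp2b10, Cyp2c37, Cyp2c68, Slc22a27, Slc22a28, Ugt2b38, Cyp2a5, Cyp3a11, Sult1a1, Serpina7 and the genes outside the lists. List medians did not move at the printed digits when genes with 0 counts in a sex were set at their floor.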

Additional observations from a re-analysis of the deposited data

Results flagged for a closer look

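The sex difference differed between wild type and Siah2 KO mice, by the interaction test of edgeR over all 12 mice, for 6 of the genes called in wild type mice and for Mup1. These genes were singled out after their values were seen. Differences are the log2 fold change of female relative to male in wild type minus that in Siah2 KO mice. Terf1, a telomere protein, differed by -1.58 (adjusted p = 0.0460), Kpnb1, importin β1, by -1.61 (adjusted p = 0.0474), Rcbtb1 by -2.29 (adjusted p = 0.0474), Prpf18, a splicing factor, by -1.80 (adjusted p = 0.0460), and Dusp11, an RNA phosphatase, by -3.06 (adjusted p = 0.0474). Chtf8 differed by 1.75 (adjusted p = 0.0474). In wild type mice the first 5 were higher in males in every mouse, as with Dusp11 at 123, 146 and 128 CPM in males and 24.5, 19.3 and 7.70 CPM in females, and Chtf8 was higher in females, at 50.5 to 69.0 against 18.3 to 27.2 CPM. In Siah2 KO mice their log2 fold changes lay between -0.29 and 0.47, and none was called. Mup1, not called in wild type, had a log2 fold change of -0.73 there and -5.82 in Siah2 KO mice (difference 5.07, adjusted p = 0.0474), and its reads may be shared with other urinary protein genes. With 1 mouse left out, the number of genes passing this test fell to 0 in 8 of the 12 fits.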

How the results depend on the processing

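The number of genes called moved with the setting, from 130 as reported to 338 with DESeq2, 802 with limma-voom and library quality weights, 536 with no filter beyond 1 count, 50 with at least 10 counts in every library, 505 with all 12 mice in 4 groups, and between 43 and 740 with 1 mouse left out. The highest of the last was the fit without female 1091, and the lowest the one without male 1087. RLE scaling gave 132 and thinning 87. With no filter the median log2 fold change of all genes was 0.15, against 0.05. Phase I enzymes had 11 called members as reported, 23 with quality weights, 19 with no filter, 2 with at least 10 counts, and 8 to 19 with 1 mouse left out. Phase II enzymes had 6, and then 11 with DESeq2, 15 with quality weights, 10 with no filter, 1 with at least 10 counts, 11 with all 12 mice, and 2 to 13 with 1 mouse left out. Steroid and bile acid metabolism had 3, with 6, 6, 6, 1 and 5 in the same order and 3 to 8. Transporters had 5, with 8, 12, 10, 2 and 9 and 3 to 12. Lipid metabolism had 7, with 14, 22, 20, 3 and 16 and 3 to 22. Secreted proteins had 18, with 38 by quality weights, 31 with no filter, 10 with at least 10 counts, 30 with all 12 mice, and 10 to 37. Regulators had 1, with 2 by DESeq2, 2 by quality weights, 6 with no filter, 3 with all 12 mice, and 0 to 2. The highest of the leave-out values was in each list the fit without female 1091, joined for the regulators by that without male 1086. Genes whose sex difference differed by genotype numbered 25, 265 by DESeq2 and 0 to 522 with 1 mouse left out. The cause of these shifts was not tested, except that at least 10 counts in every library leaves out 58 of the 130 genes by construction.

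No gene called as reported changed sign. Among genes not called, log2 fold changes near 0 changed sign with quality weights for Cd36 (0.0587), Stat3 (-0.0311), Nr1i3 (0.13) and Cebpa (-0.11), with thinning for Stat3 (-0.0434), Stat5a (0.229) and Nr1i3 (0.133) and with at least 10 counts for Stat5a (0.00426) and Insr (0.0175). With 1 mouse left out, the range spanned 0 for Stat3 (-0.0678 to 0.19), Stat5a (-0.509 to 0.262), Socs2 (-0.0866 to 1.46), Insr (-0.119 to 0.0532), Igf1r (-0.11 to 0.421), Nr3c1 (-0.159 to 0.41), Hnf4a (-0.523 to 0.057), Foxa3 (-0.0887 to 0.319), Nr1i3 (-0.371 to 0.523), Nr0b2 (-0.0109 to 1.03), Nr5a2 (-0.24 to 0.199), Cebpa (-0.212 to 0.61) and Cyp2a5 (-0.0365 to 0.388). Of the other values of named genes under the alternatives, 1309 kept direction and side of the threshold, 54 passed it and 147 no longer did. No paired analysis was possible because mouse numbers are not shared between groups. With 3 mice a group and 1293688 to 3498155 counts a mouse, the count filter left out genes such as Cux2, while some genes of 2 to 5 CPM were tested and called.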
